A study of Homo sapiens with 16 samples.

Results

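Iron storage and uptake were followed through 8 genes, which were chosen by symbol: the ferritin chains FTH1 and FTL, the carrier TF, the receptors TFRC and TFR2, the transporters SLC40A1 and SLC11A2, and the regulator IREB2. They were 8 of the 60623 genes listed, and each had at least 1 read in both cell lines. The study placed the human colorectal adenocarcinoma line Caco-2, standing for the gut, and the human hepatocellular carcinoma line HepG2, standing for the liver, in separate chambers of a microfluidic chip. Polyadenylated RNA from each line was amplified as cDNA and read by Oxford Nanopore sequencing in 16 libraries. Mono-culture cells of a line were kept alone, co-culture cells were linked to the other line by circulating medium, and each received either no free fatty acids (control) or palmitic and oleic acid in a 1:2 ratio at 1 mM in total (FFA), which gave 8 groups of 2 libraries. All cells shared the same base medium, both lines are immortalised tumour cells, and the study describes its mRNA-seq replicates as independent experiments. The labels place sampling after 1 day of FFA. The study's text describes a longer exposure for its main mRNA-seq and 1 day in a supplementary figure, so the exposure time of these libraries is uncertain. Separately, the labels' extraction step names another cell type.

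Cells hold iron inside ferritin, a shell built from heavy chains (FTH1), which oxidise iron, and light chains (FTL), which help it mineralise. Transferrin (TF), made mainly by hepatocytes, carries iron in plasma; the transferrin receptor (TFRC) brings it into cells, the related receptor TFR2 senses it on hepatocytes, SLC11A2 (DMT1) moves ferrous iron across the gut brush border and out of endosomes, and SLC40A1 (ferroportin) is the known exporter. When iron is scarce, the iron regulatory proteins, among them the product of IREB2, bind a hairpin called the iron-responsive element. Bound near the start of a transcript the proteins block its translation, and bound behind the coding sequence of TFRC they protect it from decay, so part of this control does not change how much ferritin mRNA a cell holds.

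The hairpins are shown because they divide these genes into those whose protein can change without a change in RNA and those whose RNA is itself protected. The canonical GENCODE 44 transcripts on GRCh38 were searched on the transcript strand for CNNNNNCAGTGNNNNNN. The 5 letters after the leading C had to pair with the last 5 letters, with G-T pairs allowed besides A-T and G-C. Of 20046 protein-coding transcripts, 0.0948% held such a match in the 5′ UTR and 0.609% in the 3′ UTR. FTH1 (chr11:61967575-61967601, minus strand), FTL (chr19:48965336-48965362, plus strand) and SLC40A1 (chr2:189580662-189580688, minus strand) each held 1 match in the 5′ UTR, in exon 1. TFRC held 4 in its 3′ UTR in exon 19 (minus strand, at chr3:196050980-196051006, chr3:196050576-196050602, chr3:196050511-196050537 and chr3:196050464-196050490), and it was the 1 transcript of all searched with 3 or more matches there. Each sequence runs 5′ to 3′, with the loop in capitals.
FTH1: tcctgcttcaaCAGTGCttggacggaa
FTL: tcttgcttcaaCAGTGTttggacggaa
SLC40A1: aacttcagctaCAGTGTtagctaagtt
TFRC match 1: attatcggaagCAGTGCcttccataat
TFRC match 2: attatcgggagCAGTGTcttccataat
TFRC match 3: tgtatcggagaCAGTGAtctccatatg
TFRC match 4: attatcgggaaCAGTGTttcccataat
TF held 1 match far into an annotated 3′ UTR of 18021 bases, and no UTR match was found in the transcripts searched for TFR2, SLC11A2 and IREB2. Only canonical transcripts were searched, and all 5 stem pairs had to be unbroken. A hairpin with a further bulge, or in another transcript, would be missed, so these 3 genes are not shown to lack an iron-responsive element.

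The unit is CPM, in which a gene's reads are scaled to the same total in every library. Depth ran from 49634 to 1657430 reads, so 1 read stood for 0.603 to 20.1 CPM, and 3 reads were taken as the floor of detection. The shallowest libraries were those of HepG2 co-culture FFA, at 147096 and 49634 reads. Of 15 HepG2 markers, 12 were higher in every HepG2 library than in any Caco-2 library, against 6 of 15 Caco-2 markers. Among the other Caco-2 markers, CDX1 had no read anywhere. VIL1 and TFF3 reached 101 and 195 CPM in HepG2, above their lowest Caco-2 values of 24.6 and 67.5 CPM. The summed Caco-2 markers ran from 323 to 528 CPM in Caco-2 and from 127 to 248 CPM in HepG2. The summed HepG2 markers ran from 50838 to 79763 CPM in HepG2 and from 7547 to 10379 CPM in Caco-2, with the highest Caco-2 sums in co-culture (9715 to 10379 CPM, against 7547 to 8856 CPM in mono-culture).

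The lines differed most in TF. Averaged over the 4 matched conditions, 5 of the 8 genes passed an adjusted p of 0.05 in limma: FTH1, TF and TFR2 were higher in HepG2, and TFRC and SLC40A1 were higher in Caco-2. In the same comparison 30.3% of 17544 tested genes passed. On recovered reads, edgeR called 66.9% of the 5101 genes it kept, and among 5 members kept it called FTH1, TF, TFRC and SLC40A1. The median log2 difference over all genes was -0.16, and it was -0.37 over the 8 genes. With HepG2 co-culture FFA and its Caco-2 counterpart left out, an alternative added after the data were seen, 6 members passed, SLC11A2 (lower in HepG2) being added. From the mono-culture controls alone, 1 passed, TF. Changes below are on the log2(CPM + 1) scale, with the standard error (SE), and p-values were adjusted over all genes tested.

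**Figure D1:**
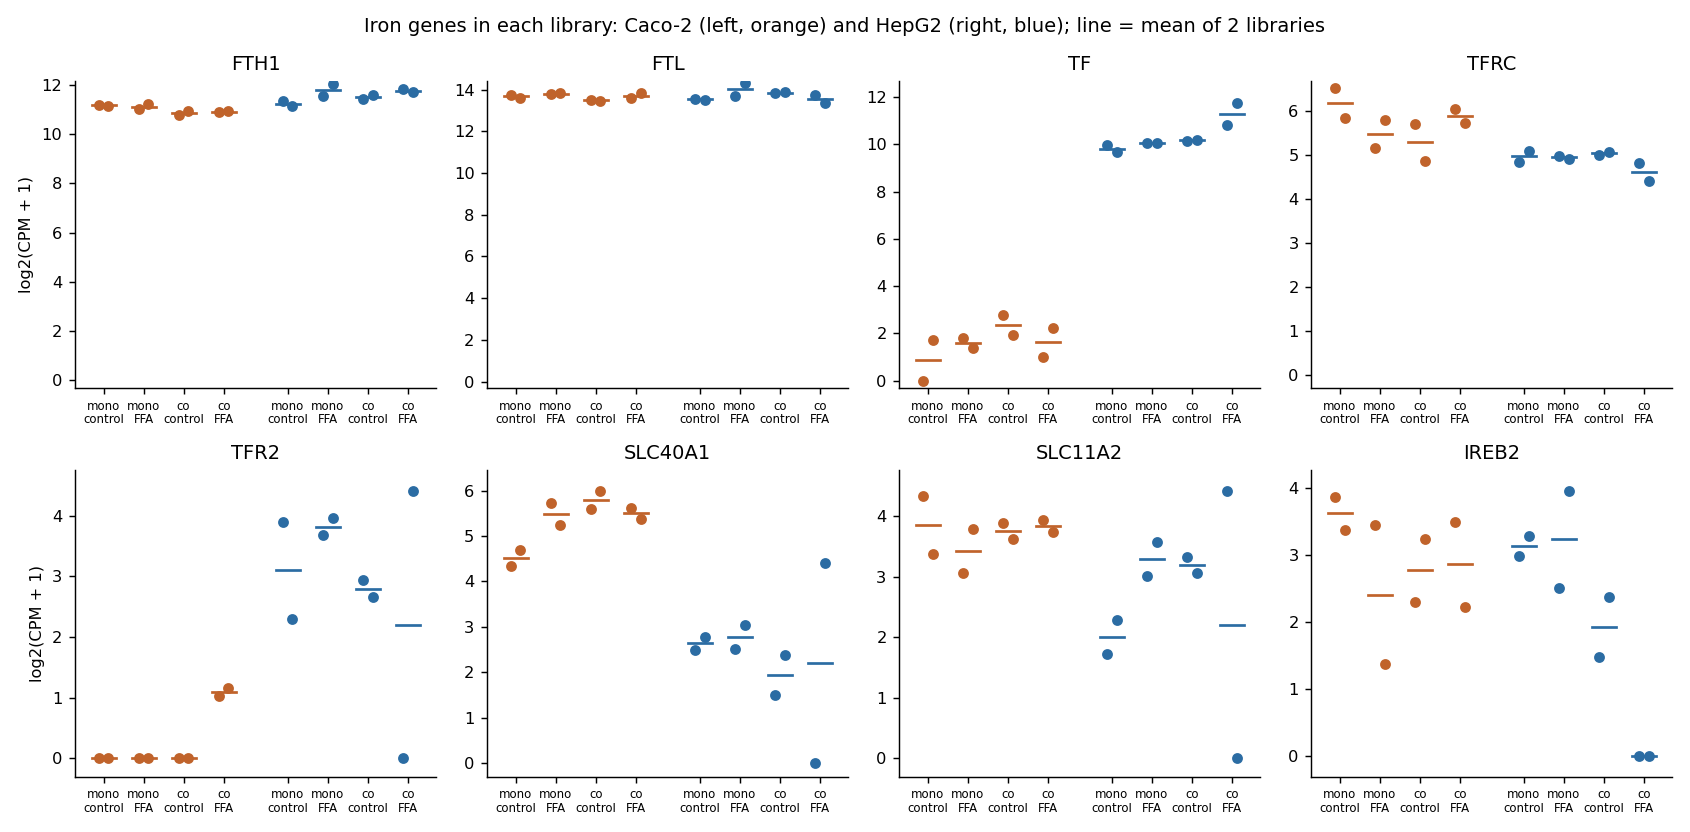
The 8 genes in each of the 16 libraries, as log2(CPM + 1), with Caco-2 in orange and HepG2 in blue; each point is 1 library and each bar the mean of 2. TF stands between 806 and 3405 CPM in HepG2 and at or under 5.94 CPM in Caco-2, and the HepG2 co-culture FFA points of TFR2, SLC40A1 and SLC11A2 rest on 0 to 3 reads.

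FTH1, the heavy chain, was the storage gene that separated the lines. In Caco-2 it stood at 2318 and 2263 CPM in mono-culture control, 2065 and 2349 CPM in mono-culture FFA, 1737 and 1978 CPM in co-culture control and 1909 and 1935 CPM in co-culture FFA. In HepG2 the same conditions gave 2549 and 2259, 2958 and 4220, 2742 and 3084, and 3617 and 3324 CPM. The lines overlapped only through a HepG2 mono-culture control library, at 2259 CPM, which lay below 3 Caco-2 mono-culture libraries. FTH1 was higher in HepG2 by 0.56 (SE 0.067), or 1.48-fold, with a limma adjusted p of 1.64e-05, while the mono-culture controls alone gave 0.07 (limma adjusted p = 0.879).

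FTL, the light chain, did not pass between the lines. It ran from 11202 to 14744 CPM in Caco-2 (median 13054 CPM) and from 10537 to 20595 CPM in HepG2 (median 13453 CPM). The highest FTL value was that of HepG2 mono-culture FFA replicate 2 at 20595 CPM, whose partner library stood at 13106 CPM. The line difference of 0.07 had a 95% interval of -0.10 to 0.24 (limma adjusted p = 0.512). Reads of ferritin pseudogenes, near copies that could take reads from their parents, came to at most 2.28% of FTH1 reads and 0.382% of FTL reads in any library.

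The share of FTH1 in all ferritin reads needs no scaling between libraries. It ran from 11.6% to 15.3% in Caco-2 (13.7 ± 1.24%, SD, n = 8) and from 15.95% to 24.0% in HepG2 (18.3 ± 2.74%, SD, n = 8), so that every HepG2 library stood above every Caco-2 library. The ratio of FTH1 to FTL reads was 1.41-fold higher in HepG2, with p = 0.00154 by exact two-sided permutation within matched conditions, the smallest that its 1296 relabelings allow (0.00772 adjusted over 5 ratio tests). The highest shares, 20.8% and 24.0%, belonged to HepG2 co-culture FFA, with exact 95% binomial intervals of 19.2% to 22.4% and 20.8% to 27.4% that cover counting error only. Within HepG2 the ratio was 1.25-fold higher with FFA than without (exact permutation p = 0.111, adjusted p = 0.185) and within Caco-2 it was 0.880-fold (exact permutation p = 0.111, adjusted p = 0.185). Co-culture against mono-culture gave 1.13-fold in HepG2 and 0.927-fold in Caco-2, both with an exact permutation p of 0.278. The tests within a line have 36 relabelings and cannot go below 0.0556. These shares are of reads and are not corrected for transcript length, so they were compared between libraries only.

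**Figure D2:**
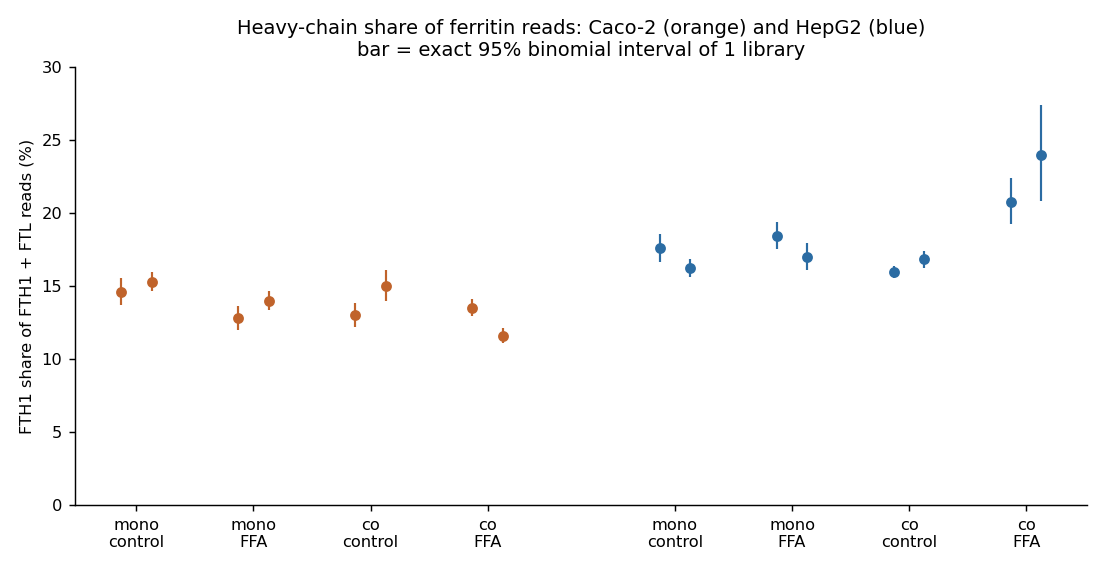
FTH1 as a percentage of FTH1 plus FTL reads in each library, with exact 95% binomial intervals; Caco-2 is orange and HepG2 blue, and the 4 conditions of each line stand side by side. The HepG2 libraries lie at 15.95% to 24.0%, all above the Caco-2 libraries at 11.6% to 15.3%.

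TF, the plasma carrier of iron, was a HepG2 transcript. All 8 Caco-2 libraries together held 12 TF reads, with 0 to 3 in each, against 5400 in HepG2, with 169 to 1874 in each. The pooled rate was 444-fold higher in HepG2 (254 to 860, a 95% interval for counting error only), and limma gave 8.71 (SE 0.27, adjusted p = 1.51e-11). In Caco-2 the 2 mono-culture control libraries stood at 0 and 2.35 CPM and the co-culture control libraries at 5.94 and 2.82 CPM, all at or under 3 reads, so no Caco-2 difference was detectable at this depth.

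The 2 transferrin receptors stood on opposite sides. TFRC, the general receptor, was at 28.3 to 90.3 CPM in Caco-2 (median 53.2 CPM) and at 20.2 to 33.2 CPM in HepG2 (median 29.9 CPM), and the line difference was -0.82, lower in HepG2 (SE 0.19, limma adjusted p = 0.00523). The line ranges overlapped through a single Caco-2 co-culture control library at 28.3 CPM. TFR2, the hepatocyte sensor, had 36 reads in the HepG2 libraries, at 0 to 20.2 CPM (median 9.21 CPM), and 2 reads in all of Caco-2, 1 in each co-culture FFA library. Its pooled rate was 17.8-fold higher in HepG2, with a counting interval of 4.57 to 152, and limma gave 2.704 (SE 0.56, adjusted p = 0.00196). TFR2 was too low for the edgeR filter, and it entered the Caco-2 fit only through the co-culture FFA group.

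SLC40A1, the exporter, had the widest difference toward Caco-2 among the 8. In Caco-2 it stood at 19.2 and 24.7 CPM in mono-culture control, 51.9 and 37.0 CPM in mono-culture FFA, 47.5 and 62.2 CPM in co-culture control and 48.2 and 40.7 CPM in co-culture FFA. In HepG2 it held 20 reads in all, against 198 in Caco-2, and its 8 libraries had 0 to 6 reads each. The HepG2 value of 20.2 CPM in co-culture FFA replicate 2 was 1 read; the other 7 HepG2 libraries stood at or under 7.28 CPM, below every Caco-2 library. The pooled rate was 10.0-fold higher in Caco-2 (6.32 to 16.8, counting error only), and limma gave -2.93 (SE 0.49, adjusted p = 0.00035).

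SLC11A2 and IREB2 were low in both lines. SLC11A2, the ferrous iron importer, ran from 7.42 to 19.2 CPM in Caco-2 (61 reads) and from 0 to 20.4 CPM in HepG2 (36 reads). The 20.4 CPM of HepG2 co-culture FFA replicate 1 was 3 reads, and its partner had none. IREB2 ran from 1.60 to 13.7 CPM in Caco-2 (36 reads) and from 0 to 14.5 CPM in HepG2 (25 reads). Neither passed in limma (adjusted p = 0.145 and 0.156), and both were too low for the edgeR filter.

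Ranked by group mean, FTH1 was highest in HepG2 mono-culture FFA (3589 ± 892 CPM, SD, n = 2), whose libraries overlapped those of HepG2 co-culture FFA (3470 ± 207 CPM), and lowest in Caco-2 co-culture control (1858 ± 170 CPM). TF fell into HepG2 co-culture FFA (2607 ± 1129 CPM), co-culture control (1144 ± 19.0 CPM), mono-culture FFA (1053 ± 7.44 CPM) and mono-culture control (908 ± 144 CPM), in which no neighbouring pair of groups overlapped. For TFRC the groups with the highest means, from Caco-2 mono-culture control (73.4 ± 24.0 CPM) down to HepG2 mono-culture FFA (29.9 ± 1.07 CPM), each overlapped the next. SLC40A1 had a gap between the 3 highest groups, all Caco-2, and Caco-2 mono-culture control (21.9 ± 3.90 CPM), which no library bridged.

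What FFA and co-culture did to these genes was asked within each line by 7 comparisons, and 0 of the 8 genes passed in limma in any of the 14. In HepG2, the share of all 14430 tested genes that passed was 0% for FFA in mono-culture, 0% for FFA in co-culture, 0% for co-culture without FFA, 0% for co-culture with FFA, 0.0762% for FFA averaged over culture, 0% for co-culture averaged over treatment and 0% for their interaction. In the same order, 2, 1, 0, 3, 2, 2 and 2 of the 8 genes had an unadjusted limma p under 0.05. The share of all tested genes at that unadjusted level was 6.26%, 15.9%, 2.61%, 14.7%, 13.8%, 7.72% and 6.94%. The counts with edgeR, which kept 4 members and 4030 genes in HepG2, were 0, 1, 0, 1, 1, 1 and 0, each of them TF. The share of genes edgeR called was 7.99% for FFA in co-culture, 0.422% for co-culture with FFA, 13.3% for FFA averaged and 1.17% for co-culture averaged.

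TF in HepG2 was highest where co-culture and FFA were combined. It stood at 1010 and 806 CPM in mono-culture control, 1048 and 1059 CPM in mono-culture FFA, 1131 and 1158 CPM in co-culture control, and 1808 and 3405 CPM in co-culture FFA. Both co-culture FFA libraries were above the other 6, and they differed from each other by more than any other HepG2 replicate pair did. FFA in co-culture gave 1.12 (SE 0.25, limma adjusted p = 0.143), where the median of all genes was -0.26, and edgeR gave an adjusted p of 0.0057. That median includes genes with no read in the shallow FFA libraries. There 8536 and 5900 genes had a read, against 13973 and 12570 in co-culture control, and the part of depth in the median was not tested. Over all alternatives other than leaving out a library, the change ran from 0.43, with TMM rescaling, to 1.33, and its adjusted p from 0.0057 to 0.310. Co-culture with FFA gave 1.24 (SE 0.25, limma adjusted p = 0.168), and edgeR an adjusted p of 0.00727, with a range over alternatives of 0.00727 to 0.272.

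The averaged TF effects include the same pair of libraries. FFA averaged over culture gave 0.67 (SE 0.18, limma adjusted p = 0.199; edgeR 0.0116) and co-culture averaged over treatment gave 0.79 (SE 0.18, limma adjusted p = 0.498; edgeR 0.00276). Over alternatives these adjusted p-values ran from 0.0116 to 0.569 and from 0.00276 to 0.608. The interaction was 0.89 (SE 0.36, limma adjusted p = 0.683). Without HepG2 co-culture FFA replicate 1, which leaves the shallower replicate 2 alone in that group with its spread taken from the other groups, FFA in co-culture was 1.57 (limma adjusted p = 0.00281) and co-culture with FFA 1.69 (0.00216). The averaged effects and the interaction were then 0.90 (limma adjusted p = 0.00907), 1.02 (0.00645) and 1.35 (0.0174). Without replicate 2 of that group, the shallower one, FFA in co-culture fell to 0.66 (limma adjusted p = 0.107) and co-culture with FFA to 0.78 (0.0800). The averaged effects and the interaction were then 0.44, 0.56 and 0.44, none of them called. TMM rescaling put FFA averaged over culture at 0.20 and the interaction at 0.48. The summed HepG2 markers, a list without TF, moved in the same libraries, at 64550 and 79763 CPM in co-culture FFA against 50838 to 62474 CPM in the other 6; their part in the TF result was not tested, nor was that of depth. In bulk RNA, more RNA per cell and more cells of a kind cannot be told apart.

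The HepG2 ferritin chains stood higher with FFA in mono-culture. FTH1 went from 2549 and 2259 CPM to 2958 and 4220 CPM, which did not overlap, a difference of 0.56 (SE 0.16, limma adjusted p = 0.712), which was 0.30 without the library at 4220 CPM. Averaged over culture it was 0.41 (SE 0.11, limma adjusted p = 0.200), with an adjusted p of 0.0375 after quantile normalization and a reversed sign of -0.069 after TMM rescaling (range of adjusted p over alternatives 0.0375 to 0.793). FTL went from 11924 and 11683 CPM to 13106 and 20595 CPM in mono-culture, a difference of 0.48 (SE 0.19, limma adjusted p = 0.781). In co-culture FTL went the other way, from 14443 and 15257 CPM to 13800 and 10537 CPM, so that its interaction was -0.78 (SE 0.27, limma adjusted p = 0.676), and co-culture with FFA was -0.45 (SE 0.19, limma adjusted p = 0.331). These 3 FTL values turned on single libraries. Without mono-culture FFA replicate 2 they were 0.15, -0.45 and -0.12. Without mono-culture FFA replicate 1, FFA in mono-culture was 0.80 and co-culture with FFA -0.77, and without co-culture FFA replicate 2 the latter was -0.25. None of them passed.

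The remaining HepG2 members were limited by depth. TFRC had 4 reads and 1 read in the co-culture FFA libraries, against 8 to 51 in the other 6. IREB2 had no read in either co-culture FFA library, where 3 reads would be 20.4 and 60.4 CPM, and stood at 6.97 and 8.80 CPM in mono-culture control, 4.71 and 14.5 CPM in mono-culture FFA and 1.81 and 4.22 CPM in co-culture control. All of these lie below those floors, so a fall of IREB2 was not detectable and no fold is given. TFR2, SLC40A1 and SLC11A2 each had no read in 1 of the 2 co-culture FFA libraries.

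In Caco-2, the share of all 15454 tested genes that passed in limma was 0.00647% for FFA in mono-culture, 0% for FFA in co-culture, 0.0971% for co-culture without FFA, 0.0971% for co-culture with FFA, 0% for FFA averaged over culture, 0.453% for co-culture averaged over treatment and 0% for the interaction. In the same order, 1, 1, 4, 0, 1, 3 and 2 of the 8 genes had an unadjusted limma p under 0.05. The share of all tested genes at that unadjusted level was 5.80%, 4.88%, 10.3%, 7.78%, 4.85%, 11.8% and 5.02%. The counts with edgeR, over 4 members and 4595 genes kept, were 0 except for co-culture averaged over treatment, where it called FTH1 and 8.47% of genes.

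SLC40A1 in Caco-2 was lowest in mono-culture control. Its mono-culture control libraries, at 19.2 and 24.7 CPM (7 and 21 reads), lay below the other 6 Caco-2 libraries, at 37.0 to 62.2 CPM (21 to 47 reads). Co-culture without FFA gave 1.28 (SE 0.31, limma adjusted p = 0.225), or 2.43-fold, where the median of all genes was 0.10. With genes kept at a group mean of at least 10 CPM the limma adjusted p was 0.0487, within a range over alternatives of 0.0487 to 0.816. FFA in mono-culture gave 0.98 (SE 0.31, limma adjusted p = 0.837), and in co-culture the FFA and control libraries overlapped. The interaction was -1.27 (SE 0.44, limma adjusted p = 0.820), and co-culture averaged over treatment gave 0.65 (SE 0.22, limma adjusted p = 0.274).

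TFRC in Caco-2 stood opposite to SLC40A1 in the same controls. It was at 90.3 and 56.4 CPM in mono-culture control, 34.6 and 54.6 CPM in mono-culture FFA, 51.5 and 28.3 CPM in co-culture control and 64.6 and 51.7 CPM in co-culture FFA. Both mono-culture control libraries were above those of mono-culture FFA and co-culture control. Co-culture without FFA gave -0.89 (SE 0.35, limma adjusted p = 0.408) and the interaction 1.29 (SE 0.49, limma adjusted p = 0.820). The first of these was -0.46 without co-culture control replicate 2 and -0.55 without mono-culture control replicate 1. Since these comparisons share the mono-culture control libraries, they are not separate evidence.

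FTH1 in Caco-2 separated mono-culture from co-culture. It stood at 2065 to 2349 CPM in the 4 mono-culture libraries and at 1737 to 1978 CPM in the 4 co-culture libraries, which did not overlap. Co-culture averaged over treatment gave -0.25 (SE 0.072, limma adjusted p = 0.168), or 1.19-fold lower, where the median of all genes was 0.14. The edgeR adjusted p was 0.0164, within a range over alternatives of 0.0164 to 0.691, and co-culture without FFA gave -0.30 (SE 0.10, limma adjusted p = 0.370). FTL differed by 0.24 (SE 0.085, limma adjusted p = 0.862) with FFA in co-culture, by 0.18 (SE 0.060, limma adjusted p = 0.829) with FFA averaged, by -0.19 (SE 0.085, limma adjusted p = 0.450) with co-culture without FFA and by -0.14 (SE 0.060, limma adjusted p = 0.386) with co-culture averaged. The FTL values were not stable in size. FFA in co-culture was 0.37 without co-culture FFA replicate 1 and 0.10 without replicate 2, which also took FFA averaged to 0.11, and co-culture averaged was -0.073 without replicate 1. With quantile normalization the 4 FTL values were 0.063, 0.095, 0 and -0.032, and with TMM rescaling co-culture without FFA was -0.39 for FTL and -0.50 for FTH1. The HepG2 marker sum was higher in the same co-culture libraries, and its part in the FTH1 value was not tested.

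**Figure D3:**
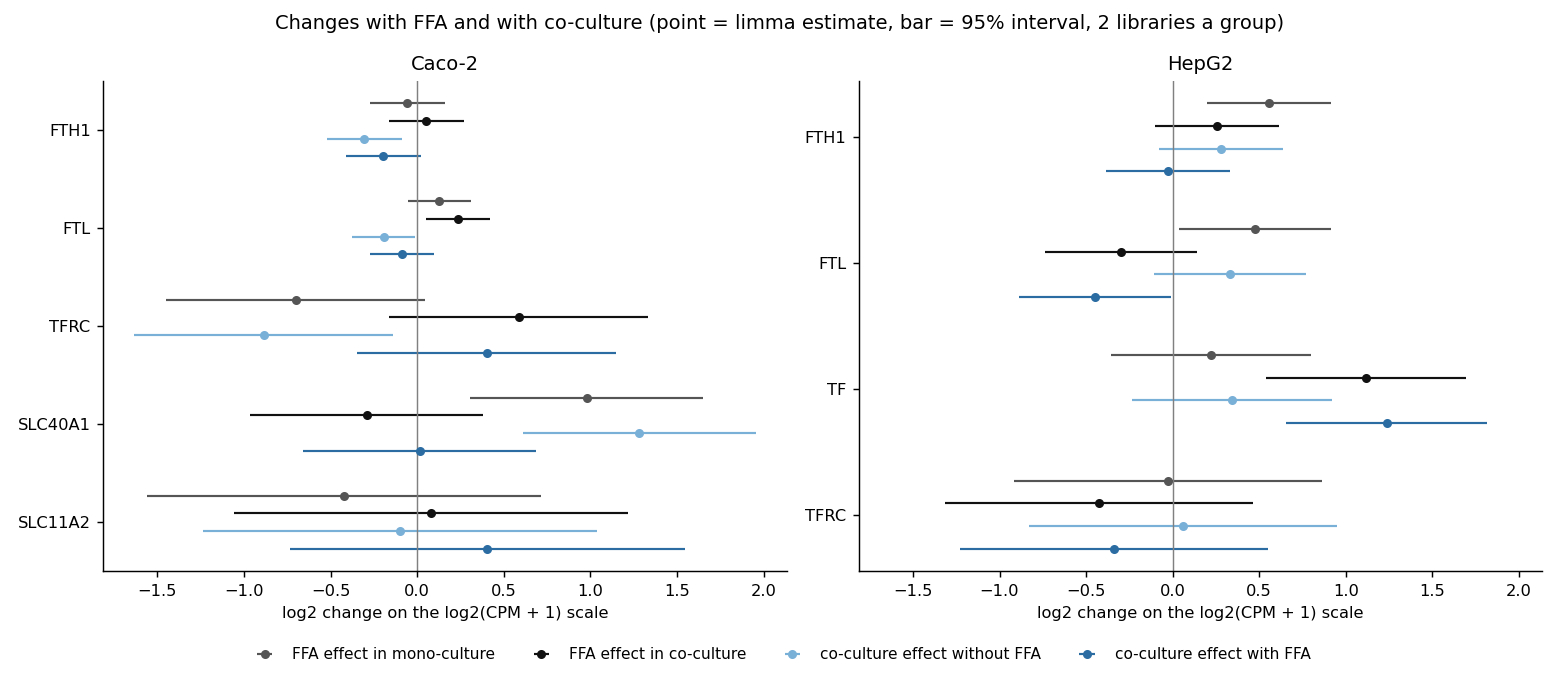
Changes on the log2(CPM + 1) scale with FFA (grey and black) and with co-culture (light and dark blue) for members with more than 10 reads in most libraries of a line and SLC11A2 in Caco-2; points are limma estimates and bars 95% intervals, 2 libraries a group. The largest estimates drawn are TF in HepG2 co-culture with FFA, at 1.24, and SLC40A1 in Caco-2 co-culture without FFA, at 1.28, and none passed an adjusted p of 0.05.

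Whether the lines responded differently was tested over both. For the FFA effect, 0 of the 8 genes and 0.0912% of all genes passed in limma, and edgeR called 0 of the 8. At an unadjusted limma p under 0.05 there were 1 of the 8 and 11.4% of all genes. For the co-culture effect the figures were 0 of 8 and 0.0969%, with 0 by edgeR. At an unadjusted p under 0.05 there were 2 members, against 9.72% of all genes. FTH1 was among these for both effects, and the other for co-culture was IREB2 (limma adjusted p = 0.457), which had no read in HepG2 co-culture FFA, so no size is given. The FFA effect of FTH1 was higher in HepG2 by 0.41 (SE 0.13, limma adjusted p = 0.252) and its co-culture effect was higher by 0.38 (SE 0.13, limma adjusted p = 0.369). Without HepG2 mono-culture FFA replicate 1 the FFA difference was 0.54 (limma adjusted p = 0.0372), and without its replicate 2 the co-culture difference was 0.50 (limma adjusted p = 0.0492). With each of the 16 libraries left out in turn, the FFA difference ran from 0.28 to 0.54 (limma adjusted p up to 0.377) and the co-culture difference from 0.25, without HepG2 mono-culture FFA replicate 1, to 0.50 (limma adjusted p up to 0.573). The FFA difference had the reversed sign after TMM rescaling, at -0.24, and was 0.13 after median-ratio rescaling, and the co-culture difference was 0.19 after TMM rescaling.

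A wider list of 56 genes of iron and heme handling was described alongside, of which 50 were tested over both lines. Between the lines 13 were higher and 7 lower in HepG2, or 40.0% of those tested against 30.3% of all genes, with a median of -0.15 against -0.16 over all genes. In the 7 comparisons within each line and the 2 differences between lines, 0 of them passed in limma. Of 7 tested uptake genes, SLC39A14, which imports iron not bound to transferrin, was higher in HepG2 by 1.85 (limma adjusted p = 0.00234). It ran from 10.9 to 121 CPM in HepG2 (139 reads, median 24.2 CPM). In Caco-2 it ran from 2.48 to 19.8 CPM (54 reads, median 11.4 CPM). At the depth of HepG2 co-culture FFA replicate 2, 1 read was 20.1 CPM. Of 5 tested storage and delivery genes, the iron chaperones PCBP1 and PCBP2 were lower in HepG2, at -0.38 and -0.55, with medians of 135 and 77.5 CPM against 169 and 124 CPM in Caco-2.

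Of 7 tested genes of export and hepcidin control, the ferroxidases that work beside ferroportin were split between the lines. HEPH, the gut form, had 35 reads in Caco-2 and none in HepG2, and CP, the plasma form, had 48 reads in HepG2 and 1 in Caco-2. SMAD4, a signal carrier upstream of hepcidin, also passed, on 7 reads in HepG2 and none in Caco-2. HAMP, which encodes hepcidin, had 9 reads in HepG2 and none in Caco-2 and did not pass (limma adjusted p = 0.231).

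Of 14 genes of mitochondrial iron and iron-sulfur cluster assembly, 6 were higher in HepG2 and 2 lower, so that 57.1% passed, against 30.3% of all genes. Among the higher genes, ISCA1 was higher by 2.29, CISD2 by 1.33, HSCB by 1.16, LYRM4 by 0.53 and ISCU by 0.32. CISD1 gave -1.298, with a median of 128 CPM against 293 CPM, and SLC25A37, the mitochondrial iron importer, gave -1.49. Of 17 heme genes, 35.3% passed, near the share of all genes. Among them HP, a plasma hemoglobin binder, was higher in HepG2 (551 reads against 4), as were BLVRA (2.18), UROD (1.79) and FECH (14 reads against 1). BLVRB was lower, at -3.002, with a median of 39.3 against 230.0 CPM and 210 reads against 1081. ALAS1, the entry enzyme of heme synthesis, gave -1.51, on 58 reads against 146. Both had a HepG2 minimum of 0 CPM, and a library at 0 enlarges a fall on the log2(CPM + 1) scale.

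**Figure D4:**
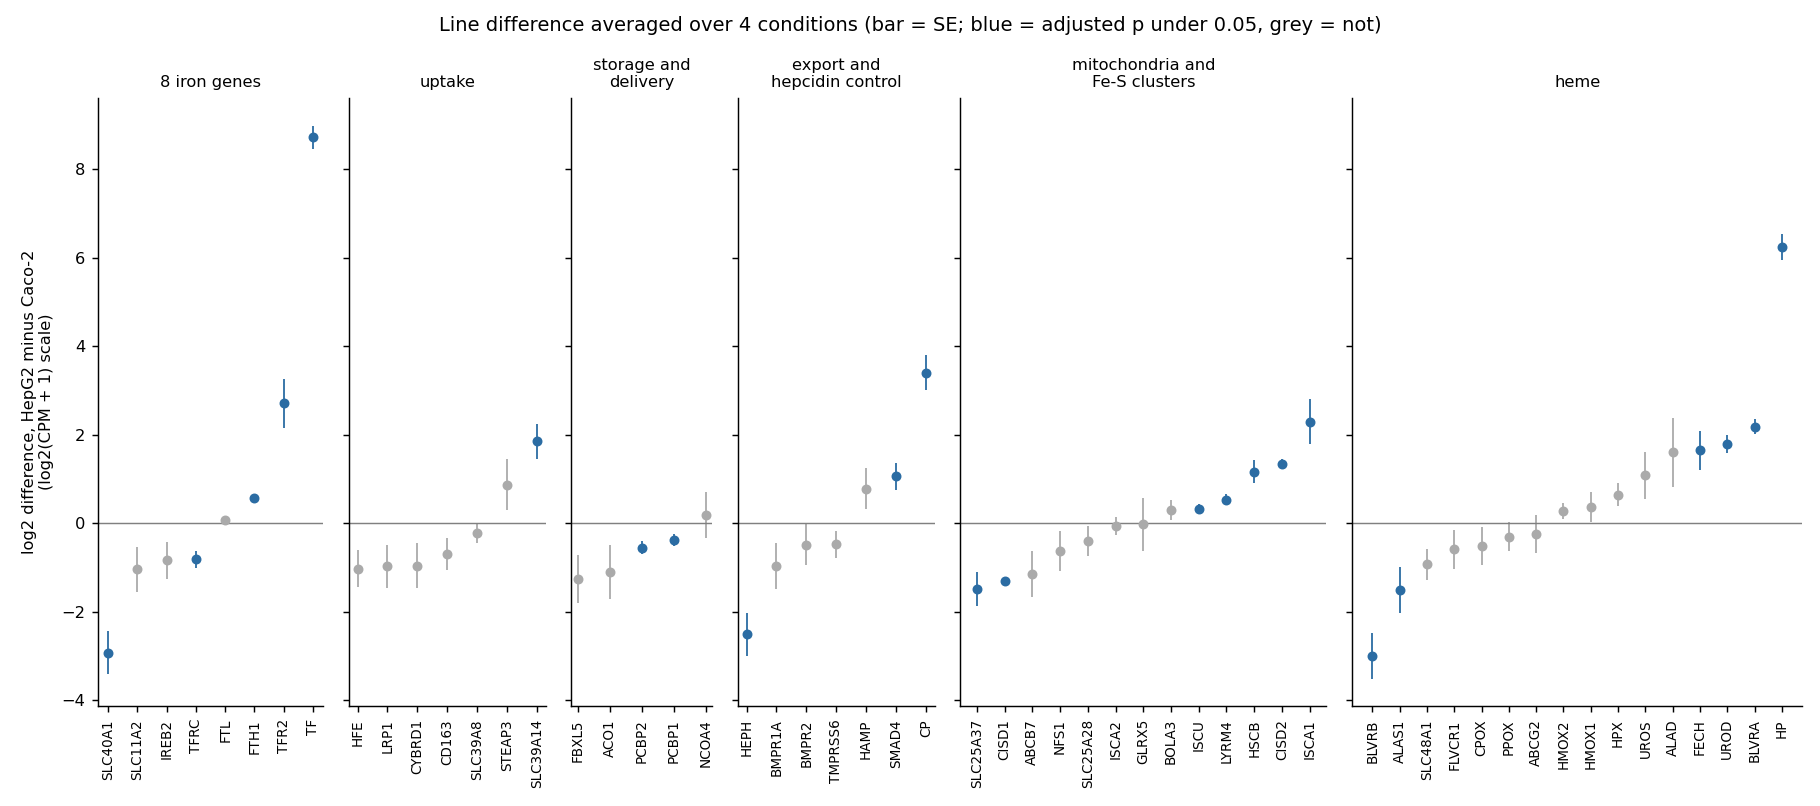
Difference between HepG2 and Caco-2 averaged over 4 conditions for the 8 genes and 48 of the tested genes of the wider list, in log2(CPM + 1) units with SE bars; blue points passed an adjusted p of 0.05 in limma and grey points did not. TF at 8.71 and HP at 6.24 are the highest points, and BLVRB at -3.002 and SLC40A1 at -2.93 the lowest.

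Within a line, the wider list's smallest p-values did not pass either. In Caco-2 they belonged to BLVRB (0.40) and PPOX (1.03) for FFA averaged over culture, both with a limma adjusted p of 0.829, and SLC25A37 (-1.20, adjusted p = 0.311) was among them for co-culture averaged over treatment. In HepG2 they belonged to CISD2 (0.49, limma adjusted p = 0.181) and CISD1 (-0.55, adjusted p = 0.200) for FFA, and to HP (-0.56, adjusted p = 0.624) and SLC39A14 (1.09, adjusted p = 0.628) for co-culture. CISD2 stood at 262 and 265 CPM in HepG2 co-culture FFA and 212 and 229 CPM in mono-culture FFA, above the control libraries at 167 to 178 CPM.

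The genes most like the abundant members across 8 libraries were sought by Pearson's r among genes averaging 100 CPM or more there; the libraries share depth and groups, and the values are a description only. In Caco-2, over 1142 genes, FTH1 was most like EIF1B (r = 0.953), APOE (0.940) and SNHG32 (0.929), and FTL most like RPL36AL (0.928), AKR1C2 (0.862) and GSTO1 (0.841). In HepG2, over 1166 genes, FTH1 was most like FDFT1 (0.955), SEC13 (0.948) and C1orf43 (0.944), FTL most like HMGB2 (0.938), AL121753.1 (0.925) and GPI (0.913), and TF most like INHCAP (0.985) and BSG and SERPINA5 (both 0.980). The ferritin chains were less alike than these, with r = 0.486 in Caco-2 and 0.631 in HepG2, and FTL and TF in HepG2 gave -0.36. Whether TF and INHCAP, BSG or SERPINA5 took reads from each other was not checked.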

How the data were processed

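The authors deposited 1 table per library, named TPM. Its values are whole multiples of 1 step per library, so they were treated as CPM (reads scaled for depth by the authors) and reads were recovered by dividing by the step; 99.6% or more of the values were whole within 0.1 reads, and all of those up to 50 reads. Per the labels, the submitters' processing notes name minimap2 2.22 and GRCh38. The study's methods instead name STAR for mapping and RSEM for TPM values. Which tool counted the reads of these libraries was not settled. No columns were left unmapped. Genes with a group mean of at least 1 CPM were kept, log2(CPM + 1) was fitted per line (4 group means) or over both lines (8 group means) with limma 3.58.1 in R 4.3.3 (trended prior variance; Benjamini-Hochberg adjustment over all genes tested), in 17 comparisons. edgeR 4.0.16 (quasi-likelihood test) was run on the recovered reads as an alternative. Ferritin ratios were compared by exact permutation within matched conditions. The limma and edgeR fits were tested on simulated reads for FFA averaged over culture in each line. The other comparisons, the ratio tests, the read recovery and the hairpin search were not tested in this way. Members, gene lists and markers were chosen with earlier results of these data known. All 8 members were named; a change was printed where its unadjusted p was under 0.05, except IREB2 where reads were at or under the floor, and other iron genes were named where they passed or had the 2 smallest p-values in an averaged comparison; 2 of these genes are not reported here. The limma intervals rest on the spread between libraries, while the binomial and pooled-rate intervals and the floors cover counting error only. Amplified reads without molecular identifiers are not independent molecules, so these counting intervals may be too narrow.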

Additional observations from a re-analysis of the deposited data

How the results depend on the processing

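Depth limited the low members: HepG2 co-culture FFA could not show IREB2 at the levels of the other HepG2 libraries, and members of few reads were left out by the edgeR filter. The count of members passing was 0 in each comparison below unless stated, and the cause of each change was not tested. It became 1 with a group mean of at least 10 CPM for Caco-2 co-culture without FFA (SLC40A1) and for Caco-2 co-culture averaged (FTH1), and 1 for the latter with replicate number as a block or with edgeR (FTH1). In HepG2 it became 1 with quantile normalization or edgeR for FFA in co-culture and for co-culture with FFA (TF), 2 with quantile normalization (FTH1 and TF), 1 with edgeR (TF) and 1 with all 16 libraries in 1 fit (FTH1) for FFA averaged, and 1 with edgeR for co-culture averaged (TF). The line count of 5 became 1 in the mono-culture controls alone, where fewer libraries enter the contrast. Leaving out 1 library gave 5 to 6 members between lines. It gave 0 to 2 in HepG2 for FFA in co-culture, co-culture with FFA and their interaction, the 2 being TF and SLC11A2 without co-culture FFA replicate 1, 0 to 1 for both averaged HepG2 effects (TF, without the same library), 0 to 1 for both differences between lines (FTH1 without HepG2 mono-culture FFA replicate 1 or 2, SLC40A1 without HepG2 co-culture FFA replicate 2), and 0 in every fit for HepG2 FFA in mono-culture and co-culture without FFA. In Caco-2 it gave 0 to 1 for FFA in co-culture, co-culture with FFA, both averaged effects and the interaction, and 0 for FFA in mono-culture and co-culture without FFA; those calls were TFR2, which has 2 reads in that line. The log2 ferritin ratio ran from 0.46 to 0.52 between lines (adjusted p from 0.00772 to 0.0154), from -0.25 to -0.12 and from 0.25 to 0.38 with FFA in Caco-2 and HepG2, and from -0.17 to -0.05 and from 0.12 to 0.25 with co-culture. Of 29 printed changes, the sign reversed with TMM rescaling for FTH1 in HepG2 with FFA averaged (-0.069) and for its FFA effect in HepG2 minus that in Caco-2 (-0.24), and in no other check. Replicate numbers were shared by the groups, and whether they pair the libraries is not settled by these values. The labels do not say which co-culture libraries of the lines came from the same chip. Pairing across the lines was not examined, and the main line comparisons treated the 16 libraries as separate. Deviations of same-numbered libraries correlated at a mean of 0.0142 in Caco-2 and 0.00868 in HepG2 across genes. Among genes of at least 100 CPM the mean was 0.151 in Caco-2 (-0.0172 to 0.291 over 6 pairs of groups) and 0.0529 in HepG2 (-0.103 to 0.121). With the block, calls over all genes went from 70 to 210 for Caco-2 co-culture averaged, from 1 to 12, 0 to 7, 15 to 46 and 15 to 57 for the Caco-2 effects within a condition, from 0 to 6 for FFA averaged and for the interaction there, and from 11 to 19 for HepG2 FFA averaged. Of the members' calls it changed that of FTH1 given above and no other.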
